A study of Mus musculus with 2 samples.

Results

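Lung endothelial cells hold each other in place, and close the vessel wall, through 10 junction genes examined here across 4 endothelial classes: Cdh5, Ctnna1, Ctnnb1 and Ctnnd1 of the adherens junction, Cldn5, Ocln and Tjp1 of the tight junction, and F11r, Jam2 and Esam of the JAM and ESAM family. They were chosen by name from the 31053 genes of the files, and all 10 had UMIs in every class and library. The cells came from the lungs of wild-type (WT) C57BL/6 mice, taken 6 h after a tail vein injection of PBS alone (the control library) or of PBS with a mouse melanoma line, B16-F10, at 200,000 cells a mouse (the metastatic library). Each library held PECAM1-positive sorted cells of 2 pooled mice, so each group was 1 library, the variation from animal to animal is not known, and no test between the groups was made. All the intervals given are 95% intervals that cover counting error in these libraries only.

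Endothelial borders are sealed by proteins that reach across the gap between neighbouring cells. VE-cadherin, the product of Cdh5, forms the adherens junction with its partner on the next cell. Inside the cell it is held by p120-catenin (Ctnnd1), which keeps it at the membrane, and by β-catenin (Ctnnb1), which binds α-catenin (Ctnna1) and through it the actin skeleton. Claudin-5 (Cldn5) makes up the strands of endothelial tight junctions, occludin (Ocln) is a second strand protein, and ZO-1 (Tjp1) is the scaffold below them. JAM-A (F11r), JAM-B (Jam2) and ESAM (Esam) are immunoglobulin-like adhesion molecules of the same borders. F11r and Esam are also known from platelets, and F11r from leukocytes and epithelium. In the lung the capillary bed consists of general capillary cells (gCap) and of large, thin aerocytes (aCap), which lie against the gas exchange surface.

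Cells were barcodes with 1000 to 5000 genes and under 20% mitochondrial UMIs (a UMI, or unique molecular identifier, marks 1 captured RNA molecule), 7134 in the control and 6466 in the metastatic library of 67,929,614 and 64,733,724 UMIs. A barcode with at least 2 of Ednrb, Fibin and Tbx2 was called aCap-like (1364 control and 1086 metastatic barcodes), with 2 of Gja5, Bmx and Fbln5 artery-like (63 and 59), and with 2 of Slc6a2, Car8 and Bst1 vein-like (247 and 304). With 2 of Gpihbp1, Aplnr, Kit and Lpl and none of these rules met it was called gCap-like (5020 and 4519). Median depth differed by class, from 5950.5 and 6275 UMIs in gCap-like to 8422 and 8157 in vein-like barcodes. None of the 10 junction genes enters these rules.

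Markers outside the rules set the aCap-like and vein-like classes apart, and the artery-like and gCap-like ones less clearly. Car4 was at 1423 and 1329 CPM (UMIs of a gene per 1,000,000 UMIs of its class) in aCap-like against 159 and 139.8 or less in the other classes, Mgp at 1933 and 1715 in artery-like against at most 481, and Prss23 at 1956 and 1623 in vein-like against at most 103. The 4 gCap markers Cd93, Plvap, Tek and Cxcl12 summed to 4565 and 4333 CPM in gCap-like barcodes, against 1632 and 1621 in aCap-like. They reached 4216 and 4350 in artery-like and 3531 and 3318 in vein-like barcodes, and so hardly set gCap-like apart from these. The artery-like class was the least clear. Its level of the vein marker Vwf was 1813 and 1519 CPM, against 2332 and 2257 in vein-like barcodes. Its Sox17 level (136 and 199 CPM) lay below that of gCap-like barcodes (206 and 275), and 2 of its 59 metastatic barcodes carried the lymphatic markers Prox1, Mmrn1 and Pdpn together.

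The libraries were not fully apart. Of the barcodes that passed, 16 passed in both, and the barcodes of 1 library held, in the other, 1.02% (control) and 1.14% (metastatic) as many UMIs as in their own. At least 3 of 6 melanoma markers were found in 19 control and 12 metastatic barcodes with 300 or more genes, 6 of them the same barcodes, although the control mice had received PBS only. Leaving out the barcodes with at least 300 genes in the other library gave the same log2 ratio, 0.43, for F11r in gCap-like barcodes. That step removed only 13 control and 15 metastatic gCap-like barcodes, too few to move the ratio. Without the barcodes that had over 50 UMIs in the other library (1884 and 2718 gCap-like barcodes) the ratio was 0.28.

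All positions are in GRCm38, the assembly that is mm10. Cdh5 (ENSMUSG00000031871) spans chr8:104101625-104144511 on the plus strand, Cldn5 (ENSMUSG00000041378) chr16:18776847-18778262 and Jam2 (ENSMUSG00000053062) chr16:84774123-84825928, both also plus. F11r (ENSMUSG00000038235) lies at chr1:171437535-171464603, Esam (ENSMUSG00000001946) at chr9:37528078-37538319 and Ctnnb1 (ENSMUSG00000006932) at chr9:120929216-120960507, all on the plus strand. Tjp1 (ENSMUSG00000030516) at chr7:65296165-65527781, Ocln (ENSMUSG00000021638) at chr13:100496507-100552718 and Ctnnd1 (ENSMUSG00000034101) at chr2:84600071-84650765 are on the minus strand. Ctnna1 (ENSMUSG00000037815) is on a plus strand too. Ctnnd1 shares its strand with Gm28635, an overlapping protein-coding gene model that was counted too, so reads of the overlap may be missing from Ctnnd1 alike in both libraries. Ctnnb1 overlaps Ulk4 and Ctnna1 overlaps Lrrtm2 on the opposite strand.

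Promoter sequences from RefSeq (GRCm38.p6) matched 6 of the 10 genes. Shown are the 250 bases before the start that this table gives for Cldn5 and Ctnnb1, which were higher in the capillary classes of the metastatic library, and of Tjp1, which was lower there. Capitals mark the GC box, GGGCGG read on either strand, here in its reverse form. The windows lie at chr16:18776597-18776846 (plus), chr9:120933150-120933399 (plus) and chr7:65371245-65371494 (minus). Those of Ctnnb1 and Tjp1 lie inside the gene spans given above, before a start within the gene. Only that of Cldn5 lies directly before its span.
Cldn5: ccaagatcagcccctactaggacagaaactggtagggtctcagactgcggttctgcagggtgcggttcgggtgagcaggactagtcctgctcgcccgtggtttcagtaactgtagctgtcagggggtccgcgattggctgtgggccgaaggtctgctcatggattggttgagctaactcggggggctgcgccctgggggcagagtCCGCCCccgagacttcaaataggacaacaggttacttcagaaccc
Ctnnb1: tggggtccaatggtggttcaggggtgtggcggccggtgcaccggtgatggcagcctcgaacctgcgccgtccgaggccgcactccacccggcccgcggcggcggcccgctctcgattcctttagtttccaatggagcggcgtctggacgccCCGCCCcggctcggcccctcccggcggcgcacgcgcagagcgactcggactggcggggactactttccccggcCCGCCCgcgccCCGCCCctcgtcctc
Tjp1: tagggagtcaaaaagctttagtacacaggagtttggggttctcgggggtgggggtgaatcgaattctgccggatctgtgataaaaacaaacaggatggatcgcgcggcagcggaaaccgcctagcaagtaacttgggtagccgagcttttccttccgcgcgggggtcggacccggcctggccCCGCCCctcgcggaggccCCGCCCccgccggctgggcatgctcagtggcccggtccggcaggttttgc

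The GC box occurred 1 time in the window of Cldn5, 3 times in that of Ctnnb1 and 2 times in that of Tjp1, and 32.7% of the 32851 promoter windows of the table held it. CCAAT, read on either strand, occurred 2 times each in Cldn5 and Ctnnb1 and not in Tjp1 (33.8% of all windows), and CCGGAA, an ETS core, in none of the 3 (12.0%). None of these letter strings lies within another. A match is a description of letters, not a site in use. The windows of F11r and Ctnnd1 overlapped annotated exons and are not shown. That of Ocln, with 1 GC box and 1 ETS core, met no annotated exon and is not shown either.

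**Figure D1:**
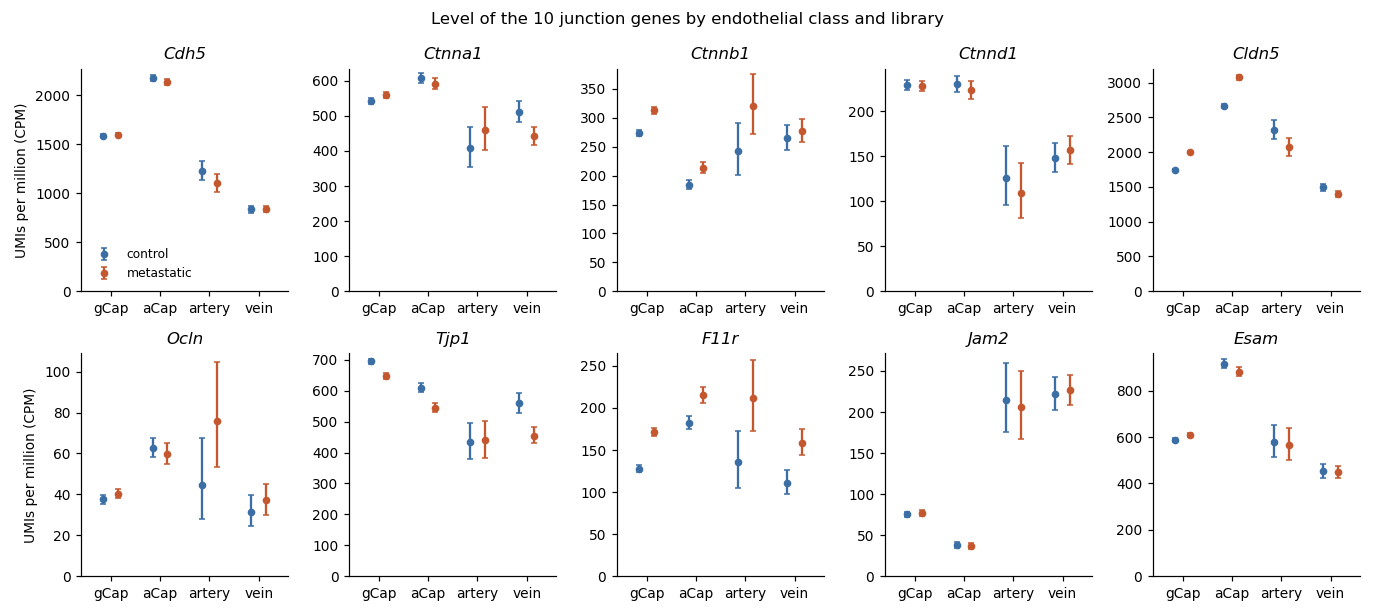
Level of each junction gene (y axis, CPM, from 0) in the 4 endothelial classes (x axis) of the control (blue) and the metastatic library (orange). Points are sums over the barcodes of a class in 1 library and bars are 95% Poisson intervals. Jam2 lay between 206 and 227 in artery-like and vein-like and below 77 in both capillary classes, while Cdh5 was at its highest, 2139 to 2174, in aCap-like barcodes.

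The first comparison asked how much of each junction gene the 4 classes carried (shown in the plot of levels by class and library). A 3′ library counts 1 tag per molecule, so the values carry no length factor, though capture may differ between genes. In control gCap-like barcodes the order was Cldn5 (1749.8 CPM), Cdh5 (1588), Tjp1 (695), Esam (587), Ctnna1 (542), Ctnnb1 (273), Ctnnd1 (229), F11r (128), Jam2 (75.5) and Ocln (37.6). In metastatic gCap-like barcodes the 10 genes stood in the same order, and in both libraries no neighbours had overlapping intervals.

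Cdh5, the defining cadherin of endothelium, was at 2174 CPM (2147–2202) in control and 2139 (2109–2169) in metastatic aCap-like barcodes, its highest levels. It followed at 1588 and 1599 in gCap-like, 1227 and 1102 in artery-like, and 835 (798–874) and 838 (804–874) in vein-like barcodes. The order of the 4 classes was the same in both libraries and no class overlapped another. Against gCap-like barcodes the vein-like level was lower by a log2 ratio of -0.93 in each library.

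Of the catenins, Ctnna1 and Ctnnd1 were higher in the capillary classes than in the artery-like and vein-like ones in both libraries, as Cdh5 was, though the Ctnna1 intervals of gCap-like and vein-like barcodes overlapped in the control library. Ctnna1 varied least of the 10 genes, from 408 to 607 CPM, a 1.49-fold range. Its level was 607 (593–622) and 592 (576–607) in aCap-like, 542 and 559 in gCap-like, 512 and 441 in vein-like, and 408 and 461 in artery-like barcodes. Ctnnb1 was lowest where Cdh5 was highest. It stood at 185 (177–193) and 214 (204–223) CPM in aCap-like barcodes, against 273 (268–279) and 313 (307–319) in gCap-like, a log2 ratio of -0.57 and -0.55, while the artery-like (243 and 321) and the vein-like levels (265 and 277) had intervals that overlapped those of gCap-like barcodes in the control library. Ctnnd1 was alike in both capillary classes, 229 and 228 CPM in gCap-like and 231 and 224 in aCap-like, and lower in artery-like (126 and 109) and vein-like barcodes (148 and 157). For Ctnnd1 the artery-like intervals, 96.4–161 and 81.6–143, overlapped the vein-like ones.

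Cldn5, the main claudin of endothelium, reached 2666 CPM (2636–2697) and 3079 (3044–3115) in aCap-like barcodes. In artery-like barcodes it was at 2322 (2190–2461) and 2070.3 (1944–2202), in gCap-like at 1749.8 and 1999.7, and in vein-like at 1493 (1442–1545) and 1394 (1350–1439). The artery-like level lay above that of gCap-like barcodes in the control library (log2 ratio 0.41, 0.32 to 0.49), but not distinguishably so in the metastatic library (0.05, -0.04 to 0.14). Ocln was the scarcest member in every class but aCap-like, where Jam2 was lower, with 22 to 99 UMIs in the artery-like and vein-like classes. At 62.7 CPM (58.2–67.5) and 59.9 (55.0–65.0) in aCap-like it exceeded gCap-like barcodes (37.6 and 40.4), by log2 ratios of 0.74 and 0.57. Tjp1 was highest in gCap-like barcodes (695 and 647 CPM), then in aCap-like (609 and 546), vein-like (559 and 455) and artery-like (434 and 440.0), with overlap of the vein-like and artery-like intervals in the metastatic library only.

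Of the JAM and ESAM family, Jam2 had the widest range of the 10 genes, 6.17-fold from its lowest to its highest level. It was at 222 CPM (203–243) and 227 (209–246) in vein-like and at 215 (176–260) and 206 (167–250) in artery-like barcodes, which overlapped. It was at 75.5 and 76.8 in gCap-like and at 38.1 (34.5–41.8) and 36.8 (33.0–40.8) in aCap-like barcodes. Its log2 ratio to gCap-like was 1.56 and 1.56 in vein-like barcodes, 1.51 and 1.42 in artery-like and -0.99 and -1.06 in aCap-like. Esam was highest in aCap-like barcodes, at 917 CPM (900–935) and 881 (862–900), and lowest in vein-like, at 453 (425–482) and 449 (424–475). In gCap-like (587 and 607) and artery-like barcodes (580.0 and 567) it could not be told apart. F11r ranged from 111 (97.6–126) in control vein-like to 215 (206–225) in metastatic aCap-like barcodes. In the control library F11r stood at 182 (174–190) in aCap-like barcodes, above gCap-like (128), with the artery-like level (136, 105–173) overlapping the latter.

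**Figure D2:**
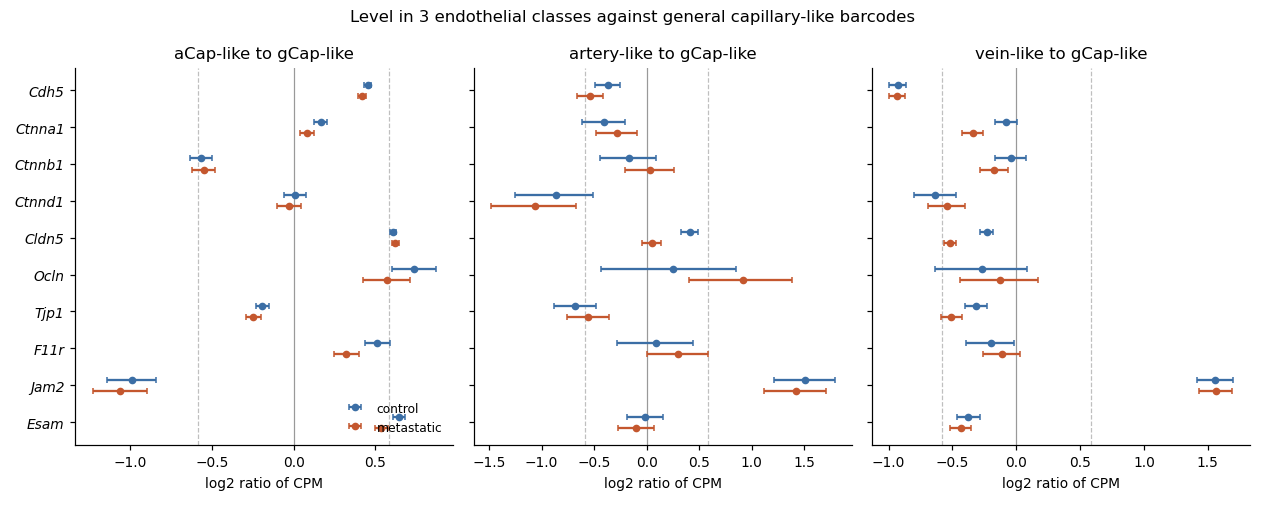
Log2 ratio of the level in aCap-like, artery-like and vein-like barcodes to that in gCap-like barcodes (x axis) for each junction gene (y axis), in the control (blue) and the metastatic library (orange), with 95% counting intervals. Dashed lines mark 1.5-fold. Jam2 lies right of the line in artery-like and vein-like (1.42 to 1.56) and left of it in aCap-like barcodes (-0.99 and -1.06).

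Few members passed 1.5-fold against gCap-like barcodes in both libraries (the plot of class ratios). In aCap-like barcodes 1 gene was higher (Cldn5, 0.61 and 0.62) and 1 lower (Jam2), where 7.29% and 9.63% of the 10648 genes with enough UMIs were called higher and lower. In artery-like barcodes Jam2 was higher and Ctnnd1 lower (-0.87 and -1.06), beside 5.07% and 7.49% of all genes. In vein-like barcodes Jam2 was again higher and Cdh5 lower, beside 5.36% and 5.96%. Esam in aCap-like (0.64 and 0.54), Ocln in aCap-like (0.74 and 0.57), Tjp1 in artery-like (-0.68 and -0.56) and Ctnnd1 in vein-like barcodes (-0.63 and -0.54) passed 1.5-fold in the control library only, and Ocln in artery-like barcodes (0.25 and 0.91) in the metastatic library only.

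Over the 8 combinations of class and library, the genes whose log2(CPM + 1) values were most like those of a member were found for the 4 members with the widest range. Jam2 was most like Dab2ip, Fxyd5 and Uqcr11 (Pearson r 0.995, 0.992 and 0.990), and Cdh5 most like Tspan15, Mapt and Pawr (0.994, 0.994 and 0.990). Ocln was most like Tmem150a, Endod1 and Clpp (0.988, 0.975 and 0.969), and Cldn5 most like Dnajc1, Nr2c2ap and Tanc1 (0.983, 0.975 and 0.974). These are descriptions over 8 points of 2 libraries, in which the classes of a library share its depth and handling.

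Cells outside the endothelium served as a background for UMIs of the members that may come from free RNA. They were chosen for under 3 of 6 endothelial markers, so their levels of endothelial genes may be low by that choice. In 63 control and 60 metastatic lymphoid-like barcodes (3 or more T, NK or B cell markers, under 3 of 6 endothelial markers) Cdh5 was at 80.4 and 43.5 CPM and Cldn5 at 26.8 and 55.9, while Jam2 had 0 UMIs in 335629 and 322035 and Ocln had 1 in each library. F11r had 2 UMIs in the control and 0 in the metastatic lymphoid-like barcodes. Ctnnb1 was at 86.4 and 68.3 CPM there, which lymphocytes also express. In monocyte or macrophage-like barcodes Ctnnb1 reached 291 and 338 CPM and F11r 122 and 109, and in epithelial-like 355 and 392 (Ctnnb1) and 106 and 127 (F11r). For Ctnnb1 the epithelial-like levels lay above the capillary levels of the same library. The monocyte or macrophage-like intervals of Ctnnb1 (243–345 and 289–392) held the gCap-like level. For F11r both cell types lay at or below the capillary levels. These values rest on 32 and 35 monocyte or macrophage-like and 25 and 17 epithelial-like barcodes. Platelet-like barcodes carried F11r at 249.8 and 197 CPM and Esam at 393 and 287, beside Cdh5 at 241 and 372, so that endothelial RNA was present in them too. Jam2 had 0 UMIs in monocyte or macrophage-like and in platelet-like barcodes of both libraries.

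The second comparison asked whether the junction genes differed between the metastatic and the control library within each class. F11r was the member with the largest difference in gCap-like barcodes, 172 CPM (167–177) against 128 (124–132), 1.35-fold or a log2 ratio of 0.43 (0.37 to 0.49). It was higher in the metastatic library in all 4 classes. The log2 ratio was 0.24 (0.15 to 0.33) in aCap-like (215 against 182 CPM), 0.52 (0.29 to 0.75) in vein-like (159 against 111) and 0.64 (0.18 to 1.11) in artery-like barcodes, the last from 103 against 67 UMIs. No interval of these reached 0. Without the barcodes that had over 50 UMIs in the other library (1884 control and 2718 metastatic gCap-like ones) the gCap-like ratio was 0.28, short of 1.3-fold. The artery-like ratio was then -0.00, with 35 of 63 control and 44 of 59 metastatic barcodes left out. With free RNA subtracted, at estimated shares of up to 59.7% of a capillary class, the F11r ratio was 0.01 in both capillary classes. It was 0.35 in vein-like barcodes when barcodes of several rules were counted in each.

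**Figure D3:**
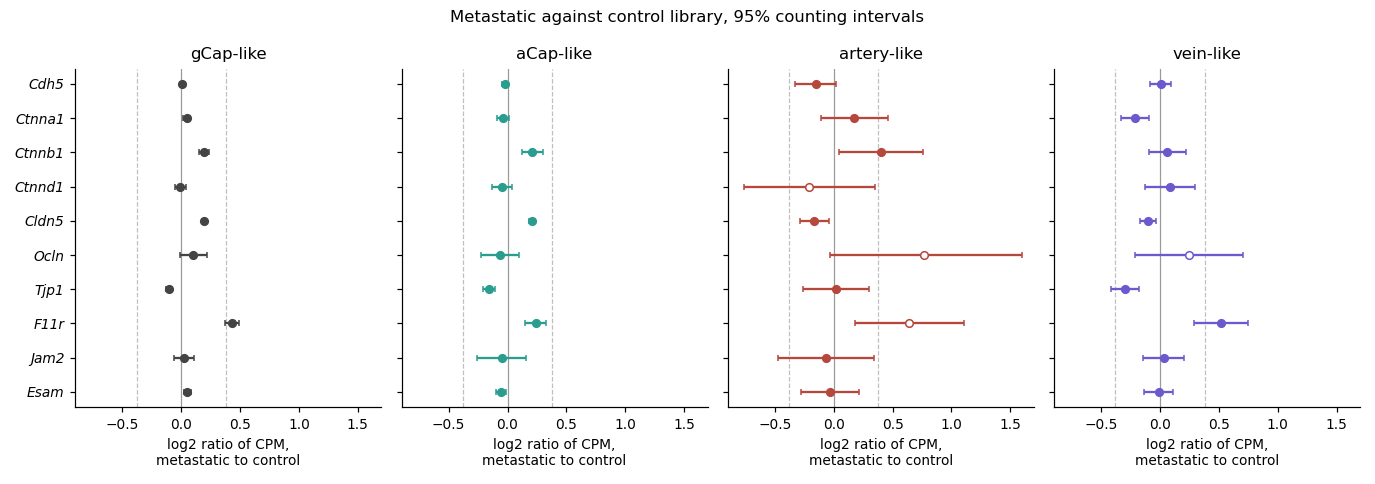
Log2 ratio of the level in the metastatic to that in the control library (x axis) for each junction gene (y axis), by class, with 95% counting intervals. Open points had under 200 UMIs over both libraries and dashed lines mark 1.3-fold. F11r lies above 0 in the 4 panels (0.24 to 0.64), and Tjp1 below 0 in gCap-like, aCap-like and vein-like barcodes (-0.10 to -0.30).

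F11r was also the only member past 1.3-fold in gCap-like barcodes (1 of 10 higher and 0 lower), where 6.98% of 10222 genes were called higher and 3.67% lower. In aCap-like barcodes 0 of 10 were past 1.3-fold in either direction (background 5.16% and 2.97%), and in vein-like barcodes F11r alone was higher and 0 lower (6.1% and 6.01%). In artery-like barcodes 7 members had 200 UMIs, of which 1, Ctnnb1, was higher and 0 were lower (8.46% and 8.97%). Ocln and F11r were also past 1.3-fold there, but had under 200 UMIs. With no minimum of UMIs, 28.6% of genes were called higher in that class. In the gCap-like, aCap-like and vein-like classes 0 or 1 of 10 is near the background share. So are 1 of 7, and 3 of 10 without the minimum, in artery-like barcodes. For gCap-like barcodes the median log2 ratio of the 10 genes was 0.05 (0.02 over all genes tested), for aCap-like -0.04 (0.02), for artery-like -0.01 (-0.03) and for vein-like 0.02 (0.00).

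Cldn5 was higher in the metastatic library in both capillary classes and lower in the larger vessels. It was at 1999.7 CPM (1984–2016) against 1749.8 (1735–1764) in gCap-like barcodes, a log2 ratio of 0.19 (0.18 to 0.21), and at 3079 against 2666 in aCap-like, 0.21 (0.18 to 0.23). In artery-like barcodes the ratio was -0.17 (-0.29 to -0.04), from 1007 against 1145 UMIs, and in vein-like -0.10 (-0.17 to -0.03), from 3730 against 3293 UMIs, but 0.10 without the barcodes with over 50 UMIs in the other library. With free RNA subtracted the Cldn5 ratio was -0.12 in gCap-like, 0.01 in aCap-like and 0.35 in vein-like barcodes, so its direction turned in gCap-like and vein-like barcodes. The spread of Cldn5 was wide, up to 67 and 128 UMIs in a gCap-like barcode of the control and the metastatic library.

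Tjp1, the ZO-1 scaffold, went the other way. Its log2 ratio was -0.10 (-0.13 to -0.08) in gCap-like, -0.16 (-0.21 to -0.11) in aCap-like and -0.30 (-0.41 to -0.18) in vein-like barcodes. In gCap-like barcodes 21.5% of all genes tested had a lower ratio, in aCap-like 14.1% and in vein-like 10.2%. The vein-like levels were 455 CPM (430–482) in the metastatic and 559 (529–591) in the control library. Without the barcodes with over 50 UMIs in the other library the ratio was -0.09 in gCap-like, -0.05 in aCap-like and -0.06 in vein-like barcodes. With free RNA subtracted it was -0.45 in gCap-like and -0.31 in aCap-like, but 0.10 in vein-like barcodes. In artery-like barcodes, with 214 UMIs in each library, it was 0.02 (-0.26 to 0.30). Ocln differed by no more than counting error in any class in the main setting. Its log2 ratio was 0.10 (-0.01 to 0.22) in gCap-like, -0.07 (-0.23 to 0.10) in aCap-like, 0.24 (-0.22 to 0.71) in vein-like and 0.77 (-0.03 to 1.60) in artery-like barcodes, the last from 37 against 22 UMIs. Over all the settings the gCap-like ratio of Ocln ran from 0.037 to 0.50.

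In the adherens junction Ctnnb1 was higher in the metastatic library in both capillary classes. It was at 313 CPM against 273 in gCap-like barcodes (log2 ratio 0.19, 0.15 to 0.24) and at 214 against 185 in aCap-like (0.21, 0.12 to 0.30). With free RNA subtracted the ratio was 0.52 in gCap-like and 0.54 in aCap-like barcodes. In artery-like barcodes the ratio was 0.40 (0.05 to 0.75), but -0.74 without the barcodes with over 50 UMIs in the other library. That cut left out 35 of 63 control and 44 of 59 metastatic artery-like barcodes. In vein-like barcodes the ratio was 0.06 (-0.10 to 0.22), but -0.63 with free RNA subtracted. Cdh5 did not differ beyond counting error in any class, although its counts were among the highest. The log2 ratio was 0.01 (-0.01 to 0.03) in gCap-like, -0.02 (-0.05 to 0.00) in aCap-like, 0.00 (-0.08 to 0.09) in vein-like and -0.16 (-0.33 to 0.02) in artery-like barcodes. With free RNA subtracted it was -0.41 in gCap-like and -0.25 in aCap-like, and without the barcodes with over 50 UMIs in the other library 0.39 in vein-like barcodes. Ctnnd1 was at -0.01 (-0.06 to 0.04) in gCap-like and -0.05 (-0.13 to 0.04) in aCap-like barcodes. Ctnna1 was at 0.05 (0.02 to 0.08) in gCap-like, -0.04 (-0.09 to 0.01) in aCap-like and -0.21 (-0.33 to -0.09) in vein-like barcodes, 441 against 512 CPM. Over all the settings Ctnna1 took both signs, from -0.20 to 0.065 in gCap-like and from -0.27 to 0.095 in vein-like barcodes.

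For Jam2 all 4 intervals held 0, with log2 ratios of 0.02 (-0.06 to 0.11) in gCap-like, -0.05 (-0.26 to 0.16) in aCap-like, 0.03 (-0.14 to 0.21) in vein-like and -0.06 (-0.47 to 0.34) in artery-like barcodes. Esam was at 0.05 (0.02 to 0.08) in gCap-like and -0.06 (-0.10 to -0.02) in aCap-like barcodes, and its artery-like (-0.03) and vein-like (-0.01) intervals held 0. In vein-like barcodes Jam2 was at 1.19 with free RNA subtracted and at -0.33 without the barcodes with over 50 UMIs in the other library, where Esam was at 0.45.

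Levels summed over a class give deep barcodes more weight, so the ratios were also taken in the barcodes above and below the median depth of their class and library. F11r was higher in the metastatic library in both, at log2 ratios of 0.46 and 0.37 in gCap-like, 0.24 and 0.23 in aCap-like, 0.74 and 0.44 in artery-like and 0.62 and 0.33 in vein-like barcodes. Cldn5 was at 0.22 and 0.15 in gCap-like and at 0.23 and 0.18 in aCap-like barcodes. Tjp1 was at -0.14 in the deeper and -0.03 in the shallower gCap-like barcodes, and at -0.43 and -0.04 in the vein-like ones, so most of its difference in these classes lay in the deeper barcodes. Ctnnb1 in artery-like barcodes turned from 0.75 to -0.34, so its artery-like difference rested on the deeper barcodes.

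RNA of other cell types moved with the libraries. At least 3 red cell genes were found in 27.9% of control and 11.4% of metastatic gCap-like barcodes, and at least 3 of 5 platelet genes in 6.49% and 10.4%. The 6 epithelial genes summed to 1701 and 1004 CPM in gCap-like and to 131 and 3665 in vein-like barcodes, where 4 and 6 barcodes carried 3 of them. Without every barcode that held 3 markers of another cell type, the gCap-like log2 ratio was 0.45 for F11r, 0.20 for Cldn5, -0.11 for Tjp1 and 0.17 for Ctnnb1, and the vein-like ratio was 0.61 for F11r and -0.21 for Tjp1, but -0.02 for Cldn5.

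Since platelets express F11r and Esam, gCap-like barcodes with at least 3 platelet markers (326 control and 471 metastatic) were set against those without. F11r did not differ, at 127 against 128 CPM in the control (log2 ratio -0.01, -0.19 to 0.16) and 162 against 173 in the metastatic library (-0.10, -0.22 to 0.03). Esam was slightly lower in the barcodes with platelet RNA, by -0.13 (-0.21 to -0.04) and -0.11 (-0.18 to -0.04). Jam2, which had 0 UMIs in platelet-like barcodes, was at -0.42 (-0.68 to -0.17) and -0.26 (-0.46 to -0.06). In this comparison 0 of 10 members were 1.3-fold higher or lower in both libraries, beside 2.74% and 2.62% of all genes. Without the barcodes that carried platelet RNA the gCap-like ratio of F11r was 0.44.

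The third comparison set gCap-like barcodes with a UMI of Inhbb, an activin subunit, against those without. At least 1 Inhbb UMI was found in 116 of 5020 control barcodes (2.31%, 1.91–2.77) and 338 of 4519 metastatic ones (7.48%, 6.73–8.29). In lymphoid-like barcodes it was found in 0 of 63 (which allows up to 5.69%) and 1 of 60 (1.67%, 0.042–8.94). These few barcodes cannot tell background apart from the gCap-like shares. In the deeper aCap-like barcodes it was found in 0.953% (0.508–1.62) and 3.41% (2.41–4.67), each below the gCap-like share of the same library. A UMI is not read as a state of the cell. The gCap-like barcodes with Inhbb were deeper (medians of 6767.5 and 7244 UMIs) than those without (5935 and 6193). Esam was higher with Inhbb in both libraries, 754 against 582 CPM in the control (log2 ratio 0.37, 0.26 to 0.48) and 786 against 589 in the metastatic library (0.42, 0.35 to 0.48). F11r was higher as well, 152 against 127 (0.26, 0.00 to 0.51) and 224 against 167 (0.43, 0.31 to 0.55). Tjp1 was lower, 623 against 697 (-0.16, -0.29 to -0.04) and 494 against 663 (-0.42, -0.51 to -0.35), as was Ctnna1 (-0.20 and -0.16). Neither Esam nor F11r reached 1.3-fold in both libraries, and 0 of 10 members did in either direction, beside 4.11% and 6.54% of all genes.

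Ctnnd1 with Inhbb was at -0.16 (-0.38 to 0.05) and -0.26 (-0.39 to -0.13). Cdh5 with Inhbb was at -0.20 (-0.28 to -0.12) in the control and -0.04 (-0.08 to 0.01) in the metastatic library. Cldn5 was at -0.18 (-0.26 to -0.10) and 0.06 (0.02 to 0.10), and Ctnnb1 at -0.19 (-0.39 to 0.01) and 0.32 (0.22 to 0.41). Jam2 was at 0.30 (-0.04 to 0.62) and -0.37 (-0.61 to -0.14). Among metastatic gCap-like barcodes without Inhbb, F11r stood at 167 CPM, above the 127 of the control barcodes without it.

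**Figure D4:**
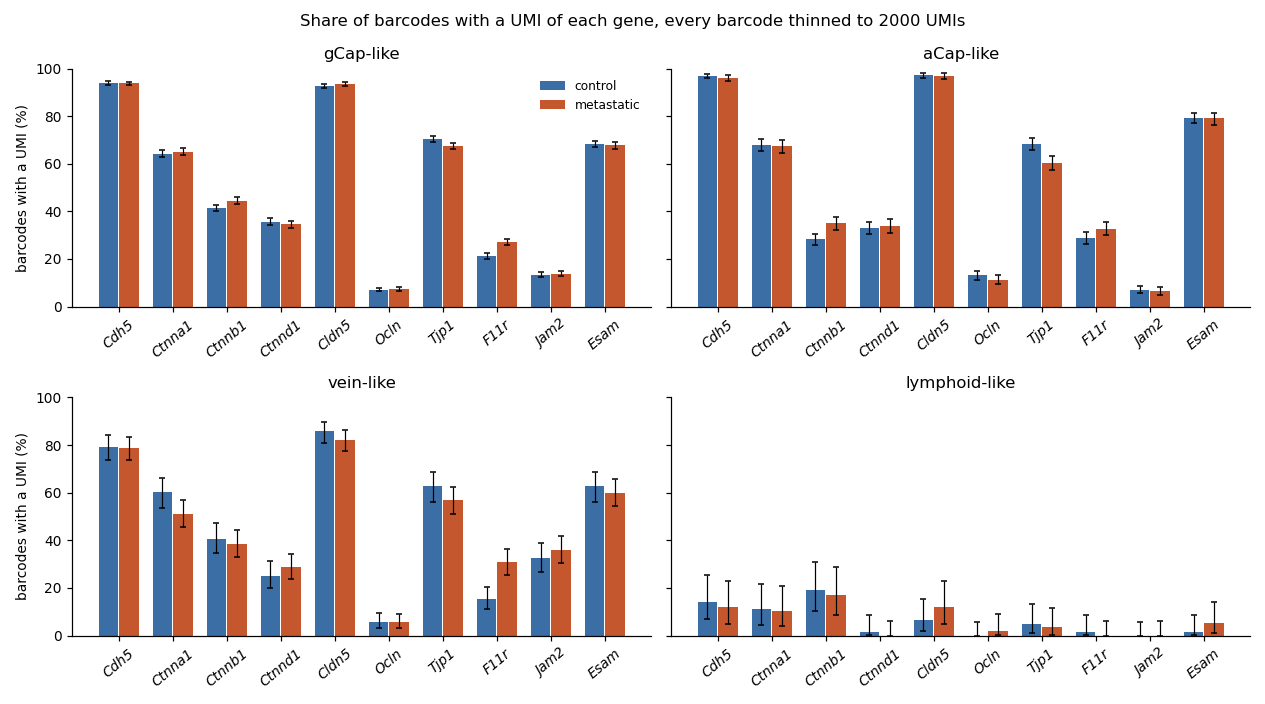
Share of barcodes with at least 1 UMI of each junction gene (y axis, %) at 2000 UMIs per barcode, for control (blue) and metastatic barcodes (orange) of 3 endothelial classes and for lymphoid-like barcodes as the background. Bars are shares with exact 95% binomial intervals. F11r goes from 21.3% to 27.0% in gCap-like and from 15.4% to 30.7% in vein-like barcodes, with 0 or 1 barcode in lymphoid-like ones.

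Shares of barcodes with a UMI were compared at an equal depth of 2000 randomly drawn UMIs a barcode, which left out 73 control and 58 metastatic gCap-like barcodes (the plot of shares). Cdh5 was found in 93.9% (93.2–94.6) and 93.8% (93.1–94.5) of gCap-like barcodes, Cldn5 in 92.8% and 93.6%, Tjp1 in 70.4% (69.2–71.7) and 67.5% (66.1–68.8), Ctnnb1 in 41.5% (40.1–42.9) and 44.4% (42.9–45.9) and F11r in 21.3% (20.2–22.5) and 27.0% (25.7–28.4). In lymphoid-like barcodes, with medians of 4865 and 4788.5 UMIs before thinning, F11r was found in 1 of 63 and 0 of 59 and Cdh5 in 14.3% and 11.9%. A count of 0 among 59 allows up to 6.06%. Without thinning F11r was found in 51.6% and 60.5% of gCap-like barcodes.

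In aCap-like barcodes the share with Tjp1 was 68.3% (65.8–70.8) in the control and 60.2% (57.2–63.2) in the metastatic library, with Ctnnb1 28.2% (25.8–30.7) and 34.9% (32.1–37.9), and with F11r 28.9% (26.5–31.4) and 32.7% (29.9–35.6), the last overlapping. In vein-like barcodes the share with F11r was 15.4% (11.2–20.6) and 30.7% (25.5–36.2). Drawn at 1000 UMIs it was 8.91% (5.67–13.2) and 14.8%, whose intervals overlapped, as did those of the aCap-like shares with Tjp1 (44.1% and 41.1%) and Ctnnb1, while those of the gCap-like shares with F11r did not (11.9% and 15.5%). Jam2 was found in 32.5% and 36.0% of vein-like against 7.16% and 6.42% of aCap-like barcodes. The median barcode of each endothelial class and library held 5 of the 10 genes at this depth, the median lymphoid-like barcode 0.

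The fourth comparison placed the members beside 6 lists of 54 further junction genes in gCap-like barcodes, again as metastatic to control log2 ratios. Of the 54, Cd99 was not among the genes counted. Of 13 further adherens junction genes 11 had 200 UMIs, 2 were past 1.3-fold higher and 0 lower (6.98% and 3.67% of all genes, the background of each list here), with a median of 0.04. Pcdh12, a vascular protocadherin, was at 0.82 (0.67 to 0.98) and Vcl (vinculin, a link to actin) at 0.39 (0.32 to 0.46). Nectin1 (-0.13, -0.42 to 0.15) and Ptprb (-0.02), the phosphatase that associates with VE-cadherin, were the lowest. Of 13 further tight junction genes 9 had 200 UMIs, 0 were past 1.3-fold higher and 1 lower (median 0.075). Cgnl1 (paracingulin) was at 0.31 (0.18 to 0.43) and Jam3 (JAM-C), a relative of F11r and Jam2, at 0.24 (-0.01 to 0.48). Pard3, a polarity scaffold, was at -0.39 (-0.45 to -0.32) and Amotl2 at -0.01.

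**Figure D5:**
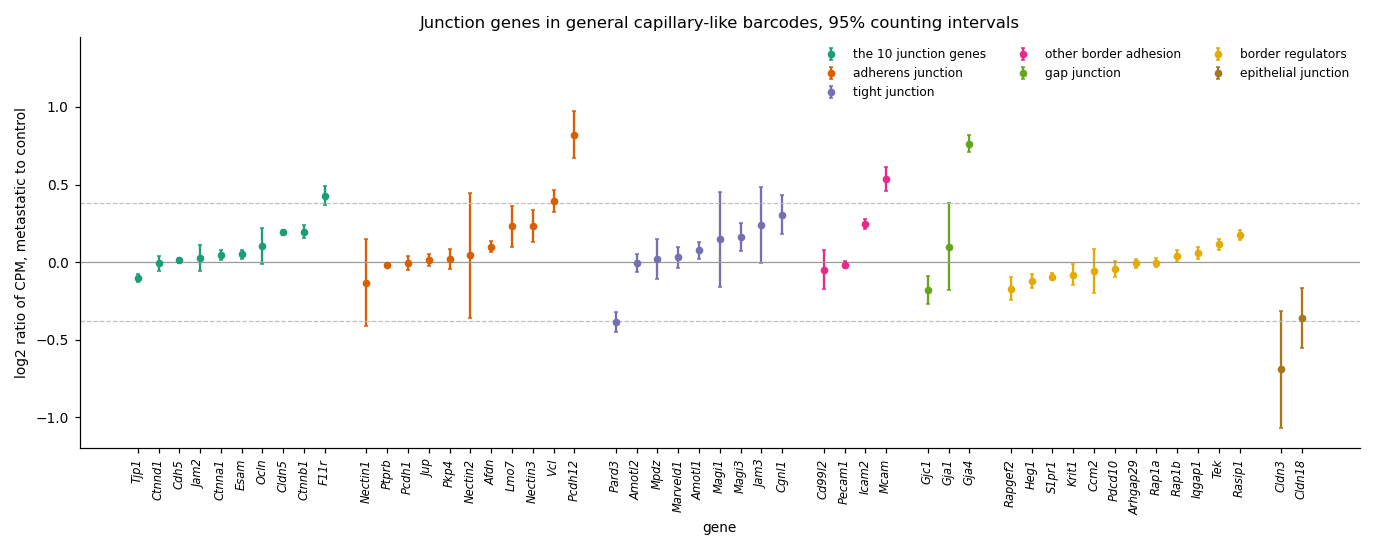
Log2 ratio of the level in the metastatic to that in the control library (y axis) in gCap-like barcodes, for the 10 junction genes and for the genes of 6 further lists with at least 200 UMIs (x axis, ordered within a list), with 95% counting intervals. Dashed lines mark 1.3-fold. Most genes lie between the lines, and Pcdh12 (0.82), Gja4 (0.76) and Mcam (0.54) lie above them, as does F11r (0.43).

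Among other border adhesion genes 4 of 5 had 200 UMIs and 1 was past 1.3-fold higher, Mcam (0.54, 0.46 to 0.62), followed by Icam2 (0.25, 0.21 to 0.28). Pecam1, the antigen of the sort, was at -0.02 (-0.04 to 0.00) and Cd99l2 at -0.05. Of the 4 connexin genes of gap junctions 3 had 200 UMIs and 1 was past 1.3-fold higher, Gja4 (0.76, 0.71 to 0.82), with Gja1 at 0.10 and Gjc1 at -0.18. None of 12 border regulators with 200 UMIs passed 1.3-fold, and they ran from Rapgef2 (-0.17) and Heg1 (-0.12) to Tek (0.12) and Rasip1 (0.17). The epithelial junction genes stood as a control for cells of another type. Of these 6 genes 2 had 200 UMIs, Cldn18 at -0.36 (-0.56 to -0.17) and Cldn3 at -0.69 (-1.07 to -0.32), both lower in the metastatic library. The epithelial markers, of which Cldn18 is itself 1, were lower there too. Cd99, 1 of the 5 other border adhesion genes, was not among the 31053 genes of the files and so has no value here.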

How the data were processed

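The authors aligned the reads to mm10 with Cell Ranger and deposited raw UMI counts of every gene, without normalization or a choice of cells. Per the file headers version 3.1.0 wrote the matrices, while the methods of the study name another version of Cell Ranger. Cells and classes were called as described above, with the gene and mitochondrial filter of the study, and barcodes that met 2 or more class rules were left out (46 control and 32 metastatic). UMIs were summed over the barcodes of a class and given as CPM with exact Poisson intervals. Ratios carry exact conditional binomial intervals, shares exact Clopper-Pearson intervals. Between libraries 1.3-fold was used for genes with at least 200 UMIs over both, between classes 1.5-fold in both libraries. Doublets were kept, and scored for an alternative (407 and 334 barcodes, of 0.8% per 1000). With 1 library per group no test was made. The members and lists were chosen with earlier results of these data known. Named genes are the 10 members, the 2 highest and 2 lowest ratios of each further list, and the 3 most alike genes of 4 members; 1 gene of these lists is not reported here. Ratios, intervals and calls were tested on simulated Poisson counts, which hold no spread between cells, mice or libraries. In all 13 alternative settings were tried, 3 of them added after the data were seen, as was the split of barcodes by depth. The analysis used Python 3.11.15, numpy 2.4.6, scipy 1.17.1 and scikit-learn 1.9.0, and positions are from GENCODE M21.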

Additional observations from a re-analysis of the deposited data

Results flagged for a closer look

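For 3 members the metastatic to control log2 ratio had an interval above 0 in 1 class and below 0 in another. The differences between classes were not tested, since each class of a library came from the same 2 pooled mice. Cldn5 was at 0.19 in gCap-like and 0.21 in aCap-like barcodes, but at -0.17 in artery-like and -0.10 in vein-like. Esam was at 0.050 in gCap-like and -0.058 in aCap-like barcodes. Ctnna1 was at 0.047 in gCap-like and -0.21 in vein-like barcodes. Over all the settings Ctnna1 ran from -0.20 to 0.065 in gCap-like and from -0.27 to 0.095 in vein-like barcodes. Esam ran from -0.018 to 0.064 in gCap-like and from -0.20 to -0.034 in aCap-like barcodes. The signs of Ctnna1 in both classes and of Esam in gCap-like barcodes thus changed with the processing. Those of Cldn5 did so in gCap-like and vein-like barcodes. The Esam differences are small against the ratios of all genes in gCap-like barcodes, of which the central 90% lay between -0.31 and 0.44.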

How the results depend on the processing

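With 300 or 1500 genes as the minimum, without barcodes that carried platelet RNA, and without those with 300 or more genes in the other library, 70 of 70 results moved by less than counting error. The last of these settings removed only 13 control and 15 metastatic gCap-like barcodes. Doublets left out: 2 members were lower in aCap-like than gCap-like barcodes, in place of 1. Without barcodes with 3 markers of another cell type 2 were higher in aCap-like barcodes, as with thinning to 2000 UMIs, and with median of ratios scaling 0. Thinning also gave 2 members higher and 2 lower in artery-like than gCap-like barcodes, 2 lower in the metastatic library in artery-like barcodes, and Ocln at -0.49 there. With barcodes of several rules counted in each class, 1 member was higher in the metastatic library in artery-like and 0 in vein-like barcodes, and 2 were lower in artery-like than gCap-like barcodes. Without barcodes with over 50 UMIs in the other library, 0 members were higher in the metastatic library in gCap-like, 1 in aCap-like, 1 in artery-like (3 lower) and 3 in vein-like barcodes (1 lower), the vein-like median was 0.20, and in artery-like barcodes F11r was at -0.00145 and Ctnnb1 at -0.74. That cut left out 44 of 59 metastatic artery-like and 242 of 304 metastatic vein-like barcodes. The cause of these changes was not tested.

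Subtracting free RNA moved 51 of 70 results. The medians became -0.12 in gCap-like, -0.15 in aCap-like and 0.25 in vein-like barcodes. In the metastatic library 2 members were then higher and 2 lower in gCap-like, 1 higher in aCap-like, and 3 higher and 2 lower in vein-like barcodes. Against gCap-like barcodes 2 were lower in aCap-like, and 2 higher and 3 lower in artery-like. That subtraction rests on estimated shares from 4.47% to 73.7%, read from genes that also sit in barcodes with RNA of other cells. With the lymphoid-like level subtracted instead, an alternative chosen after seeing the data, 2 members were higher in the metastatic library in gCap-like and 1 in aCap-like barcodes (Ctnnb1 at 0.39 and 0.57), and 2 were higher and 2 lower in aCap-like than gCap-like barcodes. A minimum of 50 UMIs in place of 200 took the background share of genes called higher in gCap-like barcodes from 6.98% to 9.86%, and 1.5-fold to 2.52%. No paired analysis was possible because each group was 1 library. Artery-like ratios rest on the fewest UMIs.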
